A study of Mus musculus with 4 samples.

Results

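The genes that write, maintain and erase 5-methylcytosine were examined in GFP-positive mouse spermatocytes. They are the DNA methyltransferase genes *Dnmt1*, *Dnmt3a*, *Dnmt3b* and *Dnmt3l*, the UHRF genes *Uhrf1* and *Uhrf2*, and the TET dioxygenase genes *Tet1*, *Tet2* and *Tet3*. They were picked by symbol, and each of the 9 had 1 row among the 24411 rows of the expression files. For 7 of them the mean over the 4 libraries was at least 1 TPM (transcripts per 1000000, which corrects a level for transcript length and sets each library to that total), and these 7 entered the fit across genes. *Dnmt3l* and *Tet1* lay below that limit and are given by their values.

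DNA methylation in mammals sits mainly on cytosines of CpG dinucleotides and is written by DNMT3A and DNMT3B, which act with the catalytically inactive cofactor DNMT3L in germ cells. DNMT1 copies the pattern onto the new strand after replication and is guided there by UHRF1, a protein that binds hemimethylated DNA. UHRF2 is its paralogue. TET1, TET2 and TET3 oxidize 5-methylcytosine, after which the mark is diluted by replication or removed by base excision repair. In the male germline the paternal pattern is laid down before birth, and spermatocytes carry it through meiosis, with *Dnmt1* known to use separate first exons in somatic cells, oocytes and pachytene spermatocytes.

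RNA was sequenced from GFP-positive cells sorted at postnatal day 18 from testes of 2 *Zfp541*+/− controls and 2 animals labelled *Zfp541* KO. All 4 carried a *Rec8* knock-in (*Rec8-3xFLAG-HA-p2A-GFP*), from which GFP is made with the meiotic cohesin REC8, so that sorting enriches cells of meiotic prophase. The strain is labelled as C57BL/6 and CBA mixed, whereas the methods name C57BL/6. Of the controls, 1 was heterozygous and 1 homozygous for the knock-in, and both animals labelled *Zfp541* KO were homozygous, but the sample labels do not say which control was which. Knock-in dose and *Zfp541* genotype therefore cannot be told apart completely. In testes of KO animals, the paper reported that ZFP541 protein was absent by immunoblot and that its immunostaining was diminished. The KO allele was made by a deletion that begins in the first exon of *Zfp541* and spans many further exons of this gene. Its TPM was nevertheless 112 for control 1, 72.2 for control 2, and 136 and 151 for the pair labelled *Zfp541* KO (log2 fold change 0.67, limma adjusted p = 0.371). Gene-level TPM does not separate deleted from remaining exons. Since the targeted transcript was not lower, these are called KO-labelled libraries throughout, and every direction rests on that label. Of the 10 pachytene markers listed, 5 lay below both controls in both KO-labelled libraries and 1 above, beside 12.1% and 38.6% of all genes tested. Those below included *Spata16*, at 207 and 76.3 TPM in controls against 4.42 and 13.6 TPM. *Pgk2* was another, at 79.0 and 18.4 TPM against 1.59 and 2.71 TPM.

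All 6 markers fixed for the sorted cells (*Rec8*, *Sycp1*, *Sycp3*, *Smc1b*, *Stag3* and *Hormad2*) were detected in every library. *Rec8* itself was at 7.05 TPM in control 1 and at 19.4 to 27.9 TPM elsewhere. In unscaled TPM the 6 summed to 2150 and 2480 in the controls against 3970 and 4170 in the KO-labelled pair. Of them, 5 lay above both controls and 0 below, beside 38.6% and 12.1% of all genes tested. Their median log2 fold change was 0.83, and their part in the levels of the methylation genes was not tested. RNA of other cells was present too, and it differed between the controls. The 6 Leydig cell markers summed to 3600 TPM in control 1, 19.4 TPM in control 2, and 392 and 606 TPM in the KO-labelled pair. The 6 macrophage and blood markers summed to 484, 21.7, 410 and 307 TPM in the same order. Both controls thus lay outside the KO-labelled pair, on opposite sides. In bulk RNA, fewer cells of a type and less RNA per cell cannot be told apart. Nothing in the labels says whether these samples share a litter or a batch, and with 2 libraries a group an exact permutation test cannot give a two-sided p under 0.33.

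The members spanned a wide range of levels, with the maintenance genes highest. On the log2(TPM + 1) scale, averaged over the 4 libraries, the order was *Uhrf1* (6.95), *Dnmt1* (6.60), *Uhrf2* (5.08), *Dnmt3a* (4.26), *Dnmt3b* (4.16), *Tet3* (3.66), *Tet2* (1.73), *Dnmt3l* (0.36) and *Tet1* (0.31). TPM is per transcript length, so levels of different genes can be set side by side. Among neighbours in this order, *Dnmt1* from *Uhrf2* and *Tet3* from *Tet2* were the pairs whose ranges over the libraries did not overlap. *Uhrf1* nevertheless lay above *Dnmt1* in 4 of 4 libraries, and *Uhrf2* above *Dnmt3a* in 4 of 4. *Dnmt3a* and *Dnmt3b* were not separable, and neither were *Dnmt3l* and *Tet1*, both under 1 TPM in every library.

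**Figure D1:**
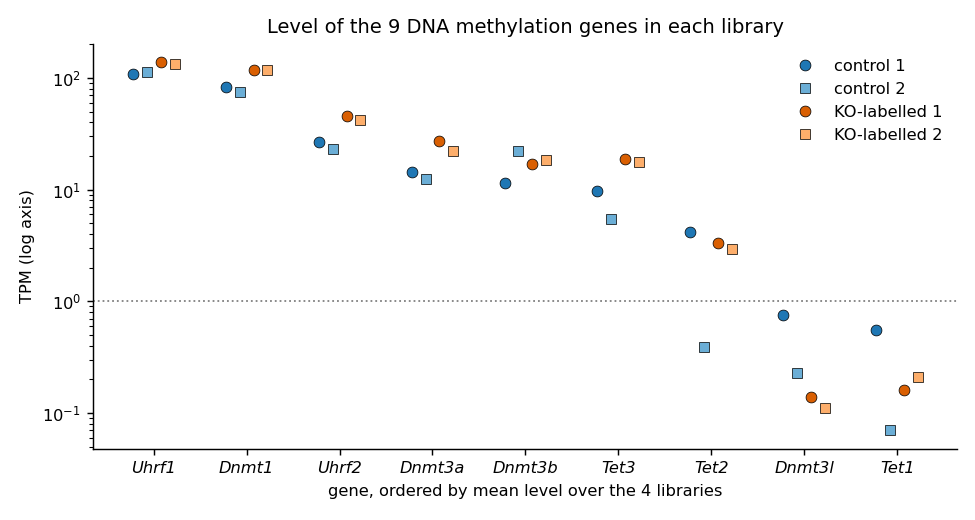
TPM (log axis) of each of the 9 genes in the 4 libraries, with blue points for controls and orange points for libraries labelled *Zfp541* KO, and the dotted line at 1 TPM. *Uhrf1* and *Dnmt1* lay highest, from 74.3 to 138 TPM, *Dnmt3l* and *Tet1* lay under 1 TPM in every library, and the controls were farthest apart in *Tet2*.

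The annotated start sites of these genes differed in their number of CpG dinucleotides. RefSeq (GRCm38.p6, the assembly UCSC names mm10) gave 16 start windows for the 9 genes, each taken here as the 250 bases before the start. Shown are windows of the 4 genes that were higher in the KO-labelled pair under every scaling, with a second *Dnmt1* start for contrast. Except for the CpG-poor *Dnmt1* window, these lie inside the gene bounds given below, wholly or, for *Uhrf2*, in part. Their starts are thus not the outermost of each gene. Sequences run 5′ to 3′ along the transcribed strand, with every CpG in capitals.
*Dnmt1*, CpG-rich start, chr9:20952624-20952873, - strand: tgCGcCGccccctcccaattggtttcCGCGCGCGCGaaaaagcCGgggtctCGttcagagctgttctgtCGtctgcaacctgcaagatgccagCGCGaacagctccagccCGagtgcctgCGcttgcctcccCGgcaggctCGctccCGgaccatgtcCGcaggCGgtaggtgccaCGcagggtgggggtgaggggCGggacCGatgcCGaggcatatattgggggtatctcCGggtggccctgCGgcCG
*Dnmt1*, CpG-poor start, chr9:20959889-20960138, - strand: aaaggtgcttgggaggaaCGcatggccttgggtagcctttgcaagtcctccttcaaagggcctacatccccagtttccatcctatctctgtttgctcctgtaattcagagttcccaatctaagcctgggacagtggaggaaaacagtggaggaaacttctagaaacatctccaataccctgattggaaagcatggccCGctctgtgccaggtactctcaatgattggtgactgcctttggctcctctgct
*Uhrf2*, annotated start, chr19:30030263-30030512, + strand: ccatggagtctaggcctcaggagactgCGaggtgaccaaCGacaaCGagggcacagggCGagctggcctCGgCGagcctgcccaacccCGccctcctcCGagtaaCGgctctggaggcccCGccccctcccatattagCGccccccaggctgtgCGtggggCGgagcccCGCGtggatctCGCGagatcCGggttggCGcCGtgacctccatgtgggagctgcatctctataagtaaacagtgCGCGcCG
*Dnmt3a*, CpG-rich start, chr12:3806910-3807159, + strand: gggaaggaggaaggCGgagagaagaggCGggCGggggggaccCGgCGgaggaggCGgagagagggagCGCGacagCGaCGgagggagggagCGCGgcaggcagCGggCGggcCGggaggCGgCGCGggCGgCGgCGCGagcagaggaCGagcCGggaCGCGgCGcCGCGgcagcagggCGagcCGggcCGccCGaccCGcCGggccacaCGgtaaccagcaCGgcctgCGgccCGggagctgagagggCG
*Tet3*, annotated start, chr6:83441679-83441928, - strand: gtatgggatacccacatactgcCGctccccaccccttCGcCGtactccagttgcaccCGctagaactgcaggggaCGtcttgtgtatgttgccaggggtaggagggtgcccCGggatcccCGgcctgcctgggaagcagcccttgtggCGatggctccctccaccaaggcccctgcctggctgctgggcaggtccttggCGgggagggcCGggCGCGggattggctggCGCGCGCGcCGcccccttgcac

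Starts of 1 gene could differ widely. The CpG-rich *Dnmt1* window held 26 CpG, more than 90.4% of the 32851 windows of all genes, and the *Dnmt1* window farthest upstream held 2. The windows shown held 40 CpG for *Dnmt3a*, 23 for *Uhrf2* and 17 for *Tet3*, against a median of 6 over all windows. Other *Dnmt3a* windows held 38 and 15. High counts were not particular to the genes shown, with 51 for *Tet2*, 10 and 30 for *Uhrf1*, 21 for *Dnmt3b* and 15 for *Tet1*. The *Dnmt3l* windows held 5, 4 and 3. The GC box GGGCGG, searched on both strands, was found in 12 of the 16 windows and in 32.7% of all windows. Some genes gave several windows, and windows of *Dnmt3a* overlapped each other, so the 16 are not separate promoters. Most of them also held more CpG than the median window, and windows of equal CpG content were not compared. Gene-level TPM does not say which start a transcript used, so the somatic and germ-cell forms of *Dnmt1* were not separated.

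No gene passed an FDR of 0.05 in either direction in the comparison of the libraries labelled *Zfp541* KO with the controls by limma over 14512 genes (0% called, against 1549 genes higher and 542 lower at an unadjusted p under 0.05). Accordingly none of the 7 members tested passed. At an unadjusted p under 0.05, 4 of the 7 were higher, where 10.7% of all genes tested were, and 0 were lower, where 3.73% were. In 5 of the 7 both KO-labelled libraries lay above both controls, beside 38.6% of all genes tested, and 0 of the 7 lay below both, beside 12.1%. Above the median log2 fold change of all genes, where 50% of genes lie by construction, there were 6 of the 7. The median log2 fold change of the 7 was 0.62, against 0.28 over all genes tested. After median-ratio scaling, which brought the median of all genes to -0.0044, 4 of the 7 stayed above both controls, beside 23.1% of all genes, and after quantile normalization 5 of the 7 did, beside 28.2%. The paper, with another differential analysis (RSEM on TPM), did report genes in both directions at an FDR of at most 0.05. The lack of calls here is thus that of limma on log2(TPM + 1). The study had itself drawn *Dnmt1*, *Dnmt3a* and *Tet3* from these libraries as raised genes, so their direction here is not independent evidence.

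Of the maintenance genes, *Dnmt1*, which lies on chromosome 9 from 20907206 to 20959888, was at 83.0 and 74.3 TPM in the control pair against 118 and 118 TPM in the KO-labelled pair. Every KO-labelled value was above every control value, and the KO-labelled pair differed by less than 0.1 TPM in SD (0.0566 TPM, n = 2). The log2 fold change was 0.58 (standard error, SE, 0.18, limma adjusted p = 0.320, unadjusted p = 0.0279). This was 0.30 above the median of all genes, at the 71.0th percentile. After median-ratio scaling the log2 fold change was 0.26, and the KO-labelled libraries still lay above both controls.

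*Uhrf1*, on chromosome 17 from 56303337 to 56323486, was at 109 and 112 TPM in the control pair against 138 and 133 TPM in the KO-labelled pair. The groups did not overlap, but the size of the difference was that of the typical gene. Its log2 fold change of 0.29 (SE 0.17, limma adjusted p = 0.482) was 0.0029 above the median of all genes, and after median-ratio scaling it was -0.037 with overlapping groups.

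*Uhrf2*, on chromosome 19 from 30030430 to 30093726, was at 26.8 and 22.9 TPM in the control pair against 45.5 and 42.0 TPM in the KO-labelled pair. Both of the latter lay above both controls, by 0.63 to 0.96 on the log2 scale over the 4 control and KO-labelled pairings. The log2 fold change was 0.80 (SE 0.23, limma adjusted p = 0.318, unadjusted p = 0.0229), the smallest p of the 7 members. It was 0.48 after median-ratio scaling.

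The unequal differences of the paralogues were also seen as a ratio within each library, which no constant factor applied to a library can change. *Uhrf1* made up 80.3% and 83.1% of the summed TPM of *Uhrf1* and *Uhrf2* in the control pair against 75.2% and 76.0% in the KO-labelled pair. The KO-labelled minus control difference was -6.11 percentage points, with no overlap (two-sided exact permutation p = 0.33, the smallest the design allows). Of the 7 shares and ratios computed, adjusted p was 1.0 for each by Benjamini-Hochberg over the exact permutation tests. *Dnmt1* as a share of the 3 catalytic DNMT genes overlapped between groups, with 76.3% and 68.2% in the control pair against 72.7% and 74.5% in the KO-labelled pair.

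**Figure D2:**
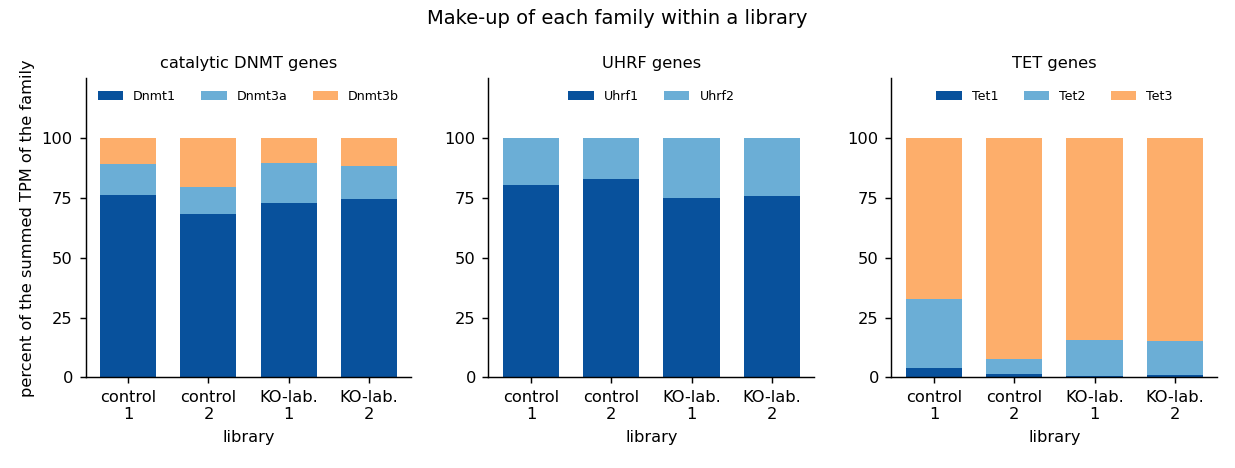
Percent of the summed TPM of the catalytic DNMT, the UHRF and the TET genes taken by each gene, stacked to 100% in each of the 4 libraries. *Uhrf1* took 80.3% and 83.1% in the control pair against 75.2% and 76.0% in the KO-labelled pair, whereas the make-up of the TET genes differed most between the controls.

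Of the de novo methyltransferase genes, *Dnmt3a* was the one with separate groups. *Dnmt3a*, on chromosome 12 from 3801559 to 3914443, was at 14.3 and 12.5 TPM in the control pair against 27.2 and 22.1 TPM in the KO-labelled pair. The lower of the KO-labelled values was above the higher control. Its mean was 1.84 times that of the controls, and the log2 fold change was 0.83 (SE 0.29, limma adjusted p = 0.333, unadjusted p = 0.0416). After median-ratio scaling it was 0.52.

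*Dnmt3b*, on chromosome 2 from 153649411 to 153687730, behaved otherwise, with 11.6 TPM in control 1 and 22.2 TPM in control 2. The KO-labelled libraries lay between them at 17.0 and 18.3 TPM. Its log2 fold change was 0.13 (SE 0.41, limma adjusted p = 0.902), with a range from -0.37 to 0.62 over the 4 pairings, and it was below 0 after median-ratio scaling (-0.18) and quantile normalization (-0.085). RefSeq places *Dnmt3b-ps1*, known by the synonym *Dnmt3c* and arisen by duplication of *Dnmt3b*, close by on chromosome 2 from 153706484 to 153730013. *Dnmt3c* was not analysed here, and reads of its transcript could have been counted toward *Dnmt3b*, so the value of *Dnmt3b* is uncertain in that respect.

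*Dnmt3a* accordingly held an uneven share of the de novo pair. It made up 55.2% and 36.0% of the summed TPM of *Dnmt3a* and *Dnmt3b* in the control pair against 61.6% and 54.7% in the KO-labelled pair, and the groups overlapped (two-sided exact permutation p = 0.67). *Dnmt3l*, the cofactor gene on chromosome 10 from 78042287 to 78063622, was at 0.76 and 0.23 TPM in the control pair against 0.14 and 0.11 TPM in the KO-labelled pair. All 4 values were low, and the groups did not overlap. In a fit with no filter on low values its log2 fold change was -0.39 (SE 0.23, limma adjusted p = 0.555 over 19312 genes).

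Of the genes for the erasing enzymes, *Tet3* had the largest difference of the 7 members tested. *Tet3*, on chromosome 6 from 83362373 to 83457208, was at 9.71 and 5.42 TPM in the control pair against 19.0 and 17.5 TPM in the KO-labelled pair. Both KO-labelled values lay well above both controls, and the gap within the control pair (0.74 on the log2 scale) exceeded that within the KO-labelled pair (0.11). The mean was 2.41 times that of the controls. On the log2 scale the fold change was 1.21 (SE 0.40, limma adjusted p = 0.324, unadjusted p = 0.0352), at the 95.1th percentile of all genes tested, and it was 0.92 after median-ratio scaling.

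*Tet2*, on chromosome 3 from 133463677 to 133545136, was at 4.18 and 0.39 TPM in the control pair against 3.30 and 2.96 TPM in the KO-labelled pair. Control 1 was the highest library and control 2 the lowest. The log2 fold change of 0.62 had a standard error of 0.75 (adjusted p = 0.716 from limma), and its sign depended on the control, from -0.39 to 1.63 over the 4 pairings. The macrophage marker *Csf1r* ran in the same order, at 209 and 1.12 TPM in the control pair against 196 and 140 TPM in the KO-labelled pair, and *Adgre1* at 68.1, 0.70, 60.4 and 43.9 TPM. Of the 6 macrophage and blood markers, 1 had both KO-labelled libraries above both controls and 0 had both below, and *Hbb-bs* and *Hba-a1* were listed at 0 in some libraries. The Leydig marker sum was likewise highest in control 1 and lowest in control 2, at 3600 and 19.4 TPM, with 392 and 606 TPM in the KO-labelled pair. The part of macrophages, blood or Leydig cells in the level of *Tet2* was not tested.

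*Tet1*, on chromosome 10 from 62804570 to 62887469, was near the lower end of detection, at 0.55 and 0.07 TPM in the control pair against 0.16 and 0.21 TPM in the KO-labelled pair. The groups overlapped. In the fit with no filter its log2 fold change was -0.12 (SE 0.23, limma adjusted p = 0.841). *Tet3* was the main TET transcript in every library, at 67.2% and 92.2% of the 3 in the control pair against 84.6% and 84.7% in the KO-labelled pair. For each 100 TPM of the 3 catalytic DNMT genes there were 13.3 and 5.39 TPM of TET genes in the control pair against 13.8 and 13.0 TPM in the KO-labelled pair, which overlapped (two-sided exact permutation p = 0.67).

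Stage markers moved with some of these genes. The 9 leptotene and zygotene markers found summed to 1710 and 1780 TPM in the controls and to 2690 and 2840 TPM in the KO-labelled pair, and 7 of them lay above both controls and 0 below, beside 38.6% and 12.1% of all genes. *Dnmt1*, *Uhrf2*, *Dnmt3a* and *Tet3* followed the same division of the libraries. Marker counts here are of unscaled TPM, in which the median log2 fold change of all genes was 0.28. Median-ratio scaling divides the controls by 1.01 and 0.80 and the KO-labelled libraries by 1.14 and 1.11. So divided, *Dmc1*, *Rad51ap2* and *Mei1* did not stay above both controls, whereas *Meiob*, *Prdm9*, *Hormad1* and *Sycp2* did. The 10 pachytene markers summed to 6560 and 3180 TPM in the controls and to 2280 and 3160 TPM in the KO-labelled pair, with 5 below both controls and 1 above. The 10 spermatogonial markers, at 383, 1100, 922 and 711 TPM, were lowest in control 1 and highest in control 2 in sum, as *Dnmt3b* was, with 3 above both controls, a smaller share than over all genes, and 0 below. Most of the gap between the controls in that sum came from *Uchl1*, at 127 TPM in control 1 and 559 TPM in control 2. *Dmrt1*, *Sohlh1*, *Sohlh2*, *Stra8*, *Lin28a* and *Nanos3* were also higher in control 2. The others, *Kit* (47.0 and 25.9 TPM), *Zbtb16* (5.54 and 4.51 TPM) and *Gfra1* (1.27 and 1.25 TPM), were higher in control 1. No spermatogonial, leptotene-zygotene or pachytene marker was listed at 0 in any library. Their part in the levels of the methylation genes was not tested.

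**Figure D3:**
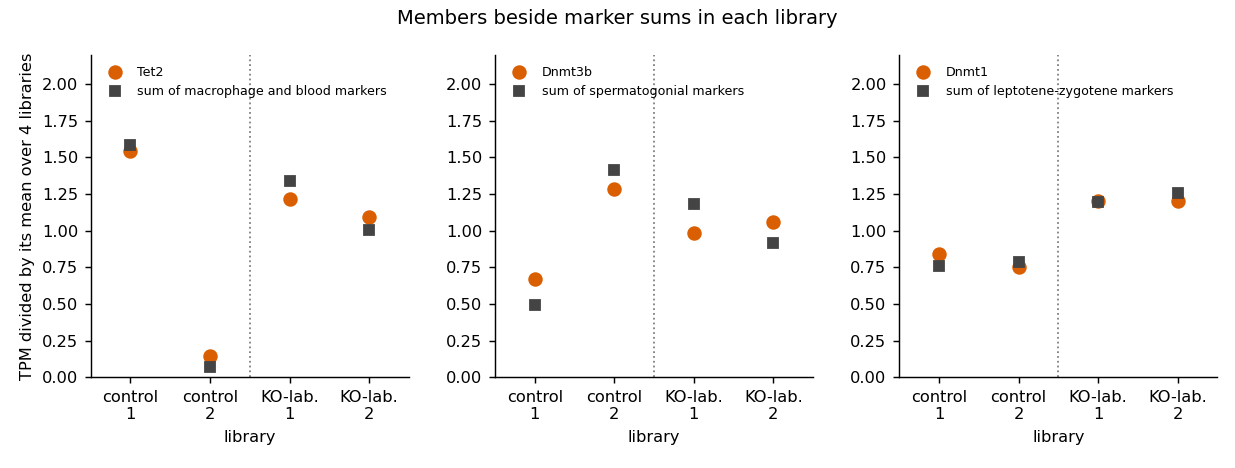
*Tet2*, *Dnmt3b* and *Dnmt1* (orange circles) beside the summed TPM of macrophage and blood, spermatogonial, and leptotene-zygotene markers (grey squares), each divided by its own mean over the 4 libraries. *Tet2* and the macrophage and blood sum were lowest in control 2 (0.39 and 21.7 TPM), *Dnmt3b* and the spermatogonial sum were lowest in control 1 (11.6 and 383 TPM), and *Dnmt1* and the leptotene-zygotene sum were higher in both KO-labelled libraries.

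Over all 4 libraries, *Srsf2* and *Rab12* were among the 3 genes with the pattern nearest that of *Dnmt1*, both at a Euclidean distance of 0.040 between log2(TPM + 1) values centred on each gene's mean. The median distance of all genes tested from *Dnmt1* was 0.76. Nearest to *Dnmt3a* were *Socs6* at 0.033 and *Wipf2* at 0.041, with a row that carries a date in place of a symbol as the third, against a median of 0.90.

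The other genes of the pathway were described as 7 lists, in which 53 different genes were tested. Of these, 0 passed an FDR of 0.05 in limma, and at an unadjusted p under 0.05 there were 14 higher and 0 lower, beside 10.7% and 3.73% of all genes tested. Both KO-labelled libraries lay above both controls for 32 of the 53 and below both for 7, beside 38.6% and 12.1% of all genes, so the count below was near that of genes at large. Their median log2 fold change was 0.46, and that of all genes 0.28. After median-ratio scaling 20 lay above and 10 below, where 23.1% and 22.3% of all genes did. *Zbtb38*, *Mbd1*, *Tdrd9*, *Zfp57*, *Ehmt1*, *Atf7ip*, *Setdb1*, *Cbx1* and *Cbx3* are also among the raised genes that the study drew from these libraries, so the counts of their lists are not independent evidence of direction.

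Partners in imprint and retrotransposon silencing had a median log2 fold change of 0.89, with 8 of 10 above both controls and 0 below, beside 38.6% and 12.1% of all genes. After median-ratio scaling 7 lay above and 2 (*Trim28* and *Ehmt2*) below, beside 23.1% and 22.3% of all genes, and the median was 0.57. *Zfp57*, a zinc finger protein that binds methylated imprinting control regions, was at 4.70 and 3.91 TPM in the control pair against 14.0 and 13.0 TPM in the KO-labelled pair. Its log2 fold change was 1.45 (adjusted p = 0.310 from limma). *Zfp445*, which also protects imprints, was at 67.7 and 20.9 TPM against 93.3 and 95.2 TPM, and *Ehmt1*, a histone H3 lysine methyltransferase gene, at 19.2 and 17.5 TPM against 42.9 and 43.8 TPM. *Trim28*, the corepressor that zinc finger proteins recruit, had a log2 fold change of 0.017, and its KO-labelled values lay below both controls after median-ratio scaling but above both after quantile normalization.

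Genes of piRNA-guided DNA methylation had a median of 0.85 and were split, with 4 of 7 tested above both controls and 2 below, beside 38.6% and 12.1% of all genes. *Tex15* was at 57.5 and 79.0 TPM in the control pair against 173 and 131 TPM in the KO-labelled pair, and *Mov10l1*, the helicase needed for piRNA production, at 195 and 284 TPM against 472 and 473 TPM. The PIWI gene *Piwil2* had a log2 fold change of 0.85 (adjusted p = 0.310 from limma). *Pld6* and *Mael* lay below both controls, and the log2 fold change of *Pld6* was -0.67. After median-ratio scaling the counts were again 4 above and 2 below, beside 23.1% and 22.3% of all genes, and the median was 0.52. *Piwil4*, whose protein directs fetal de novo methylation, did not pass the filter, at 0.56, 0.48, 1.80 and 0.98 TPM, and *Spocd1* was not analysed here.

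Among the maintenance partners and methyl-donor genes, 6 of 10 lay above both controls and 2 below, beside 38.6% and 12.1% of all genes, and the median log2 fold change of 0.32 was close to the 0.28 of all genes. After median-ratio scaling 3 lay above and 3 below, beside 23.1% and 22.3% of all genes, with a median of 0.0057. *Hells*, the remodeller that supports maintenance methylation, was at 106 and 157 TPM in the control pair against 318 and 291 TPM in the KO-labelled pair (log2 fold change 1.23, adjusted p = 0.310 from limma). Its partner *Cdca7* was at 21.7 and 58.1 TPM against 68.1 and 67.5 TPM. *Dppa3*, whose product opposes UHRF1, was at 1.62 and 5.16 TPM against 1.18 and 1.44 TPM, and *Ahcy*, which clears the by-product of methylation reactions, at 33.8 and 32.0 TPM against 22.6 and 16.3 TPM.

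Among the 8 methylated-DNA readers, 7 lay above both controls and 1 below, beside 38.6% and 12.1% of all genes, and the median log2 fold change was 0.54. After median-ratio scaling these counts were 4 and 1, beside 23.1% and 22.3% of all genes, and the median was 0.24. Under quantile normalization the median was 0.30. *Zbtb38* was at 9.11 and 3.85 TPM in the control pair against 17.9 and 17.9 TPM in the KO-labelled pair (log2 fold change 1.43, adjusted p = 0.327 from limma), and *Mbd1* at 39.2 and 24.2 TPM against 59.8 and 64.8 TPM.

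For base excision repair genes the median log2 fold change was 0.23, below the 0.28 of all genes, and it was -0.091 under median-ratio scaling and -0.023 under quantile normalization. Of the 11 repair genes, 4 lay above both controls and 2 below, near the 38.6% and 12.1% of all genes. After median-ratio scaling 1 and 2 did, beside 23.1% and 22.3% of all genes. *Tdg*, the glycosylase that removes oxidized 5-methylcytosine, was at 4.51 and 1.00 TPM in the control pair against 4.79 and 5.50 TPM in the KO-labelled pair. TET partners had a median of 0.49, which was 0.18 under median-ratio scaling. Of the 7 tested, 3 lay above both controls, near the share of all genes, and 0 below. Under either scaling 1 lay above, beside 23.1% of all genes for median-ratio scaling and 28.2% for quantile normalization. *Idh2*, at 74.7 and 6.75 TPM in the control pair against 38.5 and 33.9 TPM in the KO-labelled pair, was highest in control 1 and lowest in control 2, as were the Leydig and the macrophage marker sums. *Trdmt1*, a DNMT-fold gene whose product methylates transfer RNA, was at 18.3 and 19.7 TPM in the control pair against 31.8 and 34.2 TPM in the KO-labelled pair (log2 fold change 0.76, adjusted p = 0.320 from limma).

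**Figure D4:**
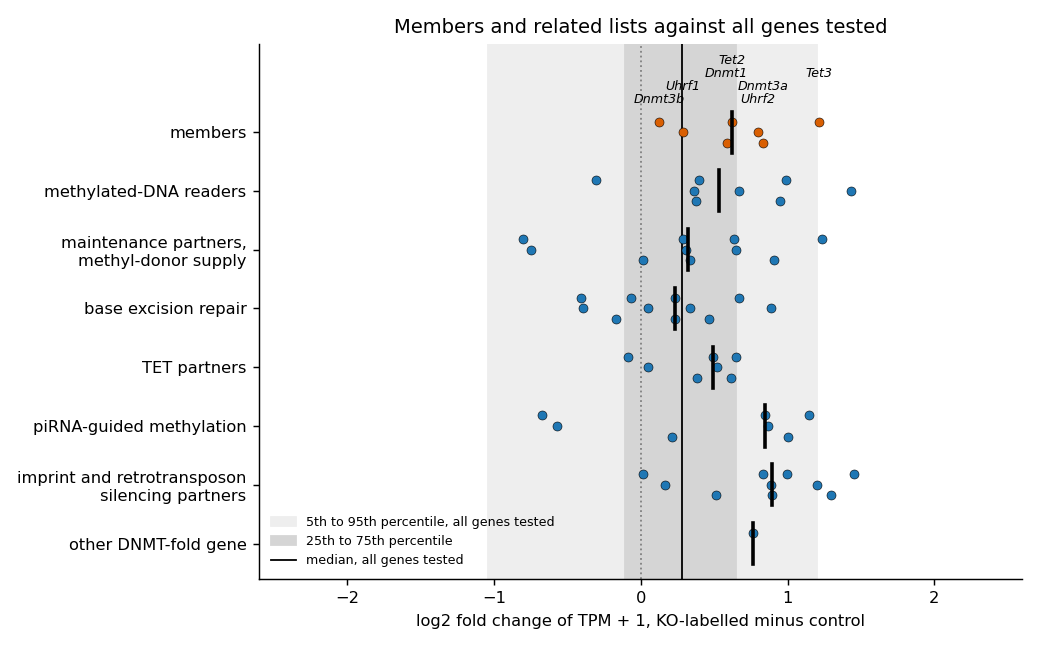
Log2 fold change of TPM + 1 of each gene tested (points) and the median of each list (black bars), for the members in orange and the related lists in blue, over the spread of all genes tested in grey. The members' median was 0.62 and that of the imprint and retrotransposon silencing partners 0.89, right of the line at 0.28 for all genes.

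The calls depended on whether both controls were kept. Without control 1, 5610 genes passed an FDR of 0.05 as higher (38.7%) and 1375 as lower (9.47%), and without control 2, 2248 (15.5%) and 1875 (12.9%) did. In the fits without a control, the spread came from the pair of KO-labelled libraries alone, and the lone control was assumed to vary like them. In the fits without a KO-labelled library, the spread came from the pair of controls alone. Without control 1 the adjusted p from limma was 0.0131 for *Dnmt1*, 0.0304 for *Dnmt3a*, 0.0141 for *Uhrf2*, 0.0156 for *Tet2* and 0.0107 for *Tet3*. Without control 2 it was 0.0356 for *Dnmt1*, 0.0384 for *Uhrf2* and 0.0462 for *Tet3*. The log2 fold change of *Tet2* went from 1.57 without control 1 to -0.33 without control 2, and that of *Dnmt3b* from -0.32 to 0.57. The log2 fold change of *Tet3* was 1.58 and 0.84 in the same fits. With KO-labelled library 1 or 2 left out instead, 0 genes passed in limma.

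**Figure D5:**
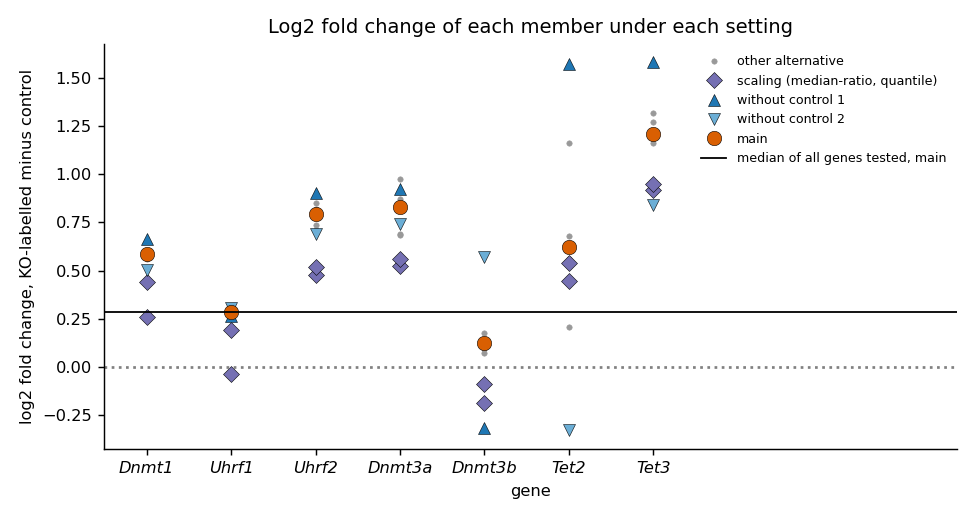
Log2 fold change of each of the 7 members tested (vertical axis) as reported (orange circles), under the scalings (purple diamonds), without control 1 or control 2 (blue triangles) and under the other alternatives (grey points), with the line at 0.28 for the median of all genes. *Dnmt1*, *Uhrf2*, *Dnmt3a* and *Tet3* lay above 0 in every setting shown, whereas *Dnmt3b* and *Tet2* changed sign with the control kept and *Uhrf1* after median-ratio scaling.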

How the data were processed

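The authors trimmed single-end reads with Trim Galore 0.5.0 (cutadapt 1.16), aligned them to UCSC mm10 with STAR 2.6.0a and estimated expression with RSEM 1.3.1. They deposited TPM per gene for each of the 4 libraries, which sums to 1000000 and keeps no depth, so counting error is unknown. A date stands where a symbol should be in 27 rows.

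Samples were grouped by their labels. limma 3.58.1 (R 4.3.3) compared the genotypes on log2(TPM + 1), which understates changes of low genes, for genes averaging 1 TPM or more. A mean-variance trend was used, p-values were adjusted by Benjamini-Hochberg, and the FDR threshold was 0.05. Shares within a library were compared by exact permutation (SciPy 1.17.1). The members and lists were chosen with earlier results of these data known. The text names the members, up to the 4 largest absolute changes among genes tested from each list, *Zfp541* and *Rec8* as label checks, and the 3 patterns nearest *Dnmt1* and *Dnmt3a*, of which 1 is not reported here. *Csf1r*, *Adgre1*, *Spata16*, *Pgk2*, *Uchl1*, *Kit*, *Zbtb16*, *Trim28*, *Ehmt2*, *Pld6*, *Mael* and *Piwil4* were singled out after their values were seen. Alternatives covered the pseudocount, filter, scaling, trend, replicate block and each library left out, and a crossed block was added after the data were seen. Coordinates and start windows are from RefSeq GRCm38.p6.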

Additional observations from a re-analysis of the deposited data

How the results depend on the processing

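No gene passed an FDR of 0.05 with another pseudocount, filter, scaling or variance model, or without either library labelled *Zfp541* KO. Across the fits without 1 library, genes called higher ranged from 0 to 5610 and genes called lower from 0 to 1875, the upper values coming from fits without a control. Deviations of same-numbered libraries correlated at -0.156 over genes, a single value that cannot decide whether the libraries were paired. A fit with the replicate block called 0 genes, the members' adjusted p lay between 0.629 and 0.949 in limma, and no member's call changed. With the numbers crossed as the block, chosen after seeing the data, 7 genes were called higher and 80 lower, and no member passed.

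The members' median log2 fold change was 0.82 for a pseudocount of 0.1, 0.45 under median-ratio scaling, and 0.57 to 0.90 with 1 library left out. *Dnmt3b* changed sign with median-ratio scaling (-0.18), quantile normalization (-0.085) and without control 1 (-0.32), *Uhrf1* with median-ratio scaling (-0.037) and *Tet2* without control 2 (-0.33, against 1.57 without control 1). As shares of all 9 members, the difference of *Dnmt3a* was 1.58 and that of *Tet1* -0.068 percentage points. With a filter at 5 TPM, *Tet2* was not tested. With 2 libraries a group, a difference that missed the threshold is not shown to be absent. TPM keeps no depth, so what depth limits in *Tet1* and *Dnmt3l* is unknown. For these changes the cause was not tested.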
